A study of Mus musculus with 10 samples.

Results

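The genes described here are 44 genes of macrophages and innate immunity, chosen by symbol: growth factor signals, transcription factors, surface and scavenger receptors, complement C1q, Fc receptors, antigen presentation, chemokines, cytokines and pattern receptors. Of the 44, 42 had 10 or more counts in 5 or more libraries, out of 54532 genes in the count table, and these 42 were among the 17937 genes tested. In 40 of them every library reached 10 counts. The other two, Tnf and Ccl3, passed with 7 and 6 libraries, and all 5 control libraries but 2 of the other genotype reached 10 counts for Tnf. Ccl4 (0 to 15 counts per library) and Il1b (0 to 8 counts) did not pass and have counts only.

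The study sequenced polyadenylated RNA from cochleae of female mice on postnatal day 1. The bony capsule had been taken off, and the left and right cochlea of an animal made 1 library, giving 10 libraries from 10 animals. The control group (5 libraries) was Esrrgfl/fl, homozygous for a floxed allele of the nuclear receptor gene Esrrg, and the conditional knockout group (cKO, 5 libraries) was Esrrgfl/fl;Sox10-Cre. All animals therefore carried the floxed alleles. Sox10, whose regulatory sequence drives the Cre, is a gene of neural crest, glia and inner ear epithelium and is not known as a macrophage gene; the control label names no Cre. The libraries held 33487089 to 41779836 counts. Esrrg itself was higher in the libraries labelled cKO, at 89.8 ± 15.2 against 58.4 ± 6.34 CPM (counts scaled to a common library total; SD, 5 animals each), so the targeted gene went against the label. A count over the whole gene does not show whether the floxed stretch was removed. The group is therefore called the libraries labelled cKO. Over all genes tested, edgeR's quasi-likelihood test with Benjamini-Hochberg adjustment called 111 genes at an adjusted p under 0.05, 98 lower and 13 higher in the libraries labelled cKO. Control 2 stood apart across genes. Its deviation from the other controls fell with exon length (r = -0.35 over 17929 genes, against -0.16 to 0.17 in the other 9 libraries). Results are therefore also given without it.

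Macrophages are tissue phagocytes that arise from blood-forming precursors and depend on the receptor Csf1r, which binds the growth factors Csf1 and Il34. In the cochlea they are known to lie in the stria vascularis, along the basilar membrane and among spiral ganglion neurons, where they clear debris. The transcription factor PU.1, encoded by Spi1, binds purine-rich sites with the core GAGGAA in the regulatory regions of many myeloid genes.

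The 250 bases before the RefSeq transcription start are shown for 4 members because their levels or their motif content carry the comparisons that follow: Mrc1 (GRCm38.p6, chr2:14229164-14229413, plus strand), Cd163 (chr6:124304401-124304650, plus strand), C1qb (chr4:136886201-136886450, minus strand) and Tnf (chr17:35202008-35202257, minus strand). Capitals mark GAGGAA or its reverse complement TTCCTC.
Mrc1: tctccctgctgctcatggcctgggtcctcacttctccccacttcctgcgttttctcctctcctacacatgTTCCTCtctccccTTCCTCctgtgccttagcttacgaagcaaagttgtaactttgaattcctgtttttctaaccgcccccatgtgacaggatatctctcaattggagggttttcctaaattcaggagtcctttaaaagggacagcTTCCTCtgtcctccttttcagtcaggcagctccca
Cd163: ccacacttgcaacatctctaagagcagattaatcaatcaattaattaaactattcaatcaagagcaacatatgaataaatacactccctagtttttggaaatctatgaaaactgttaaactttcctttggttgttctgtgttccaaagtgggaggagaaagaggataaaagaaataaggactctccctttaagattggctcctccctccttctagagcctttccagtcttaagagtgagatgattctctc
C1qb: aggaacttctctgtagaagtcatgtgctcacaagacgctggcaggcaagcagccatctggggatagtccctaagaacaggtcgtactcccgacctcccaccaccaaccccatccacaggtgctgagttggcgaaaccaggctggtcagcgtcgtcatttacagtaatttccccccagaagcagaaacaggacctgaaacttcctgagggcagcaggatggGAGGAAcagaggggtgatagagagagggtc
Tnf: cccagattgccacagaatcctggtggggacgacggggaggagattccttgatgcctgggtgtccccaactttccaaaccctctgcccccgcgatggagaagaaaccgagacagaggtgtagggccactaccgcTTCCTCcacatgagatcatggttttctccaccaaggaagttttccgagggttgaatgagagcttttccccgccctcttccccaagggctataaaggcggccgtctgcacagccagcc
The Mrc1 window held the motif 3 times, starting at -180, -167 and -35 counted back from the start. The C1qb window held it at -30 and the Tnf window at -117, and the Cd163 window did not hold these letters. Of the 42 members, 30 were in the RefSeq promoter table, and 16 of those 30 (53.3%) held the motif on either strand in at least 1 of their windows, against 25.8% of the 27025 genes in the table. Among the resident genes defined further down it was 7 of 12 and among the inflammatory genes 3 of 6. A match describes the letters and does not show binding.

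Markers of the cochlea were abundant: the mean over the 10 libraries was 218 FPKM (fragments scaled for exon length and for library total) for the gap junction gene Gjb2, 187 for the tectorial membrane gene Tecta and 131 for Coch, and the hair cell genes Myo7a and Otof were at 3.94 and 3.64 FPKM. On the same scale, per length, the most abundant members were C1qb at 37.1 ± 7.44, C1qa at 35.9 ± 7.94, C1qc at 21.7 ± 4.21 and Lyz2 at 20.1 ± 4.83 FPKM (SD over 10 libraries). Tyrobp, Fcer1g, Ctss, Mrc1, Csf1r, Lyve1 and Csf1 followed, between 18.7 and 10.3 FPKM. The other members that passed were at 8.93 FPKM (Laptm5) or less, down to 0.109 FPKM for the monocyte chemokine receptor Ccr2. Markers of other leukocytes varied in level. The T and NK cell list summed to 3.50 to 3.80 CPM in controls and 3.61 to 4.73 CPM in the libraries labelled cKO, the mast cell list to 19.5 to 26.8 and 23.6 to 35.4 CPM, and the neutrophil list to 54.2 to 126 and 23.7 to 81.7 CPM. Most of the neutrophil sum was Mmp9 (469 to 4410 counts per library), a protease also made by osteoclasts; of the granule genes, Prtn3 had 74 to 167 counts, Ngp 15 to 67, Mpo 0 to 19 and Elane 0 to 6. In bulk tissue, fewer cells of a type and less RNA per cell cannot be told apart.

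Between the genotype labels, none of the 42 members was called: edgeR's quasi-likelihood test gave 0 calls, where 0.619% of all genes were called (0.546% lower and 0.0725% higher), and the smallest adjusted p was 0.207, for Csf1r. At an unadjusted p under 0.05 there were 6 members, 5 higher (Csf1r, Mrc1, Cd163, Laptm5 and Il34) and 1 lower (Tnf) in the libraries labelled cKO, or 14.3% of the members against 9.65% of all genes (4.13% higher and 5.52% lower). DESeq2 also called 0 members, with 7 at an unadjusted p under 0.05, where it called 1.71% of all genes and put 10.6% under that unadjusted p. Limma-voom with quality weights called 1 member, Mrc1, higher at an adjusted p of 0.0451, where it called 2.36% of all genes and 0.379% as higher. With the replicate number as a block edgeR called 0 members and 0.563% of all genes. No member separated the genotypes without overlap in CPM, where 2.84% of all genes did. The median log2 fold change was 0.06 over the members, 26 of them above 0 and 16 below, beside -0.01 over all genes. Without control 2 edgeR called 0 members, against 1.09% of all genes, with 8 members at an unadjusted p under 0.05, all of them higher (C1qa, C1qb, C1qc, Csf1r, Fcgr3, Il34, Laptm5 and Mrc1), against 10.2% of all genes in either direction and 3.92% higher, and the median of the members was 0.13.

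**Figure D1:**
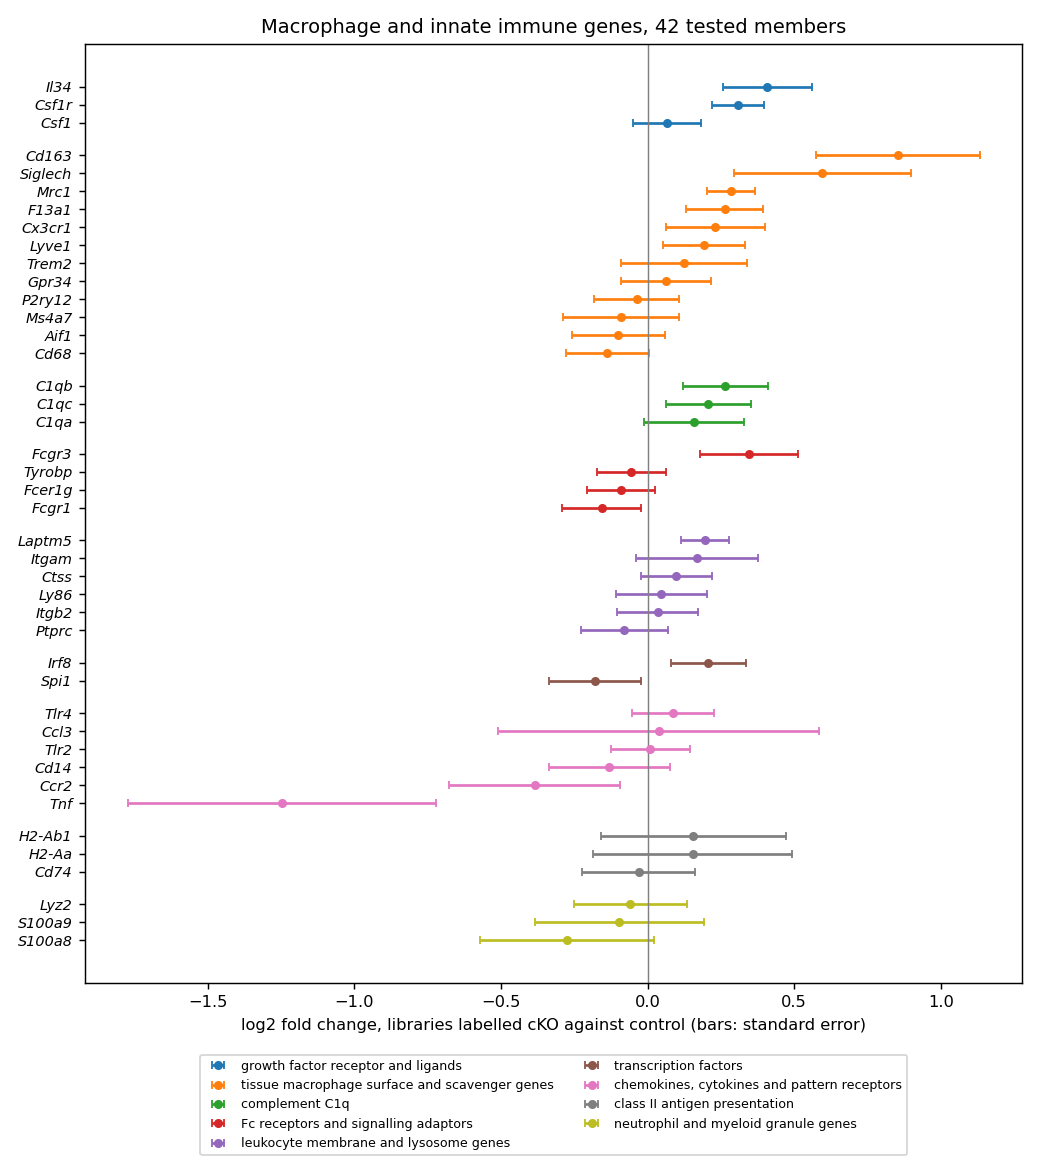
Log2 fold change of each of the 42 tested members (libraries labelled cKO against control, x axis), grouped and coloured by role, with the standard error as bars. Cd163 at 0.85 and Tnf at -1.25 lie farthest from 0, and no member passed the adjusted test.

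The growth factor axis came first. Csf1r (ENSMUSG00000024621; GRCm38 chromosome 18, 61100598 to 61132149), the tyrosine kinase receptor on which macrophages depend, stood at 77.9, 66.5, 61.4, 72.6 and 71.0 CPM in controls 1 to 5 and at 87.8, 94.9, 77.3, 77.8 and 95.1 CPM in the libraries labelled cKO 1 to 5. Libraries 1, 2 and 5 of the latter lay above every control, and libraries 3 and 4 were just below control 1. Its log2 fold change was 0.31 (SE 0.0887; edgeR adjusted p = 0.207). Exons of Csf1r overlap those of Hmgxb3 on the opposite strand, and since the use of strand is not given, reads of such pairs could not be told apart. The same holds for Il34, Cx3cr1, F13a1, P2ry12 and Il1b, and exons of Itgam and Cd74 overlap those of another gene on their own strand.

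Il34 (chromosome 8, 110741829 to 110805924), a ligand of Csf1r, was at 10.6, 10.9, 7.57, 9.67 and 7.08 CPM in controls and 14.9, 10.4, 10.8, 10.9 and 14.0 CPM in the libraries labelled cKO. The groups overlapped only through controls 1 and 2, which reached the lower libraries of the other label. The log2 fold change was 0.41 (SE 0.152; edgeR adjusted p = 0.398). Csf1, the other ligand, was at 50.4, 40.0, 63.4, 56.5 and 56.3 CPM in controls and 51.1, 54.7, 57.0, 65.5 and 50.6 CPM in the libraries labelled cKO, a log2 fold change of 0.07 (SE 0.115; edgeR adjusted p = 0.873). Its lowest library was control 2, and without that library the value was -0.03. Per length Csf1 exceeded Il34, with 10.3 against 5.41 FPKM over the 10 libraries.

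**Figure D2:**
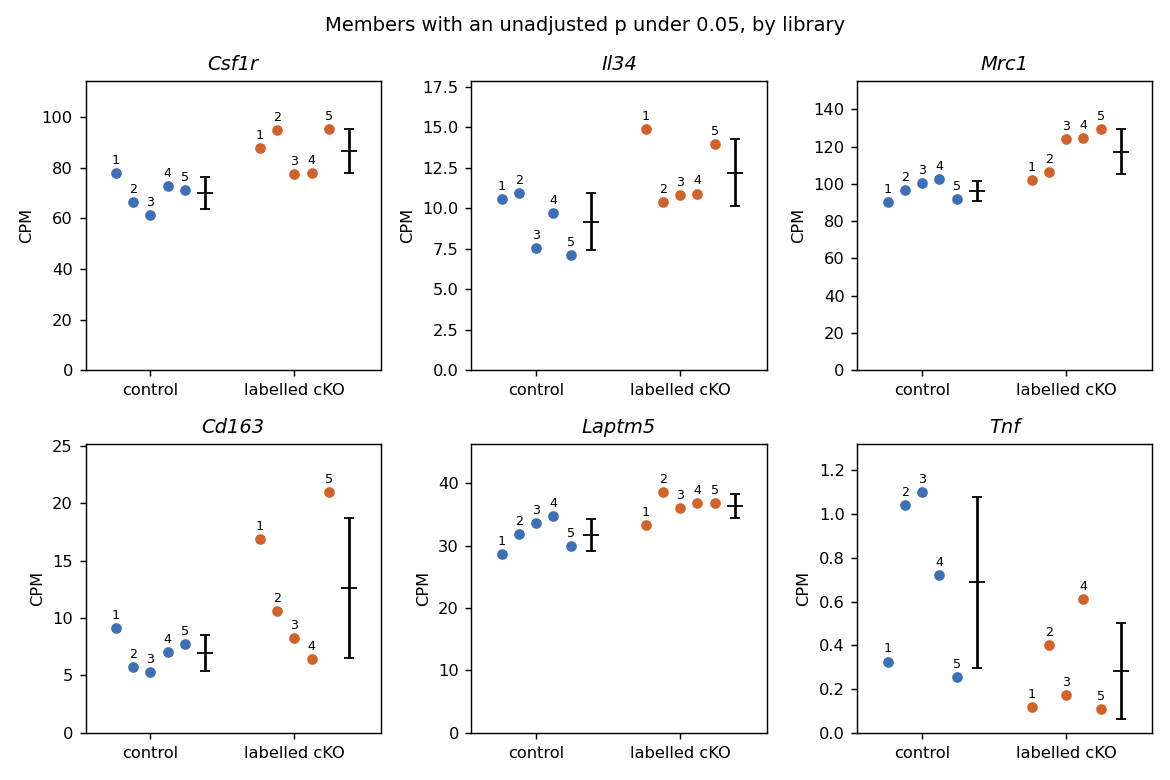
CPM (y axis, from 0) of the 6 members with an unadjusted p under 0.05 in each library. Points are libraries numbered by replicate, blue for control and orange for the libraries labelled cKO, and black bars give the mean ± SD (n = 5 each). The groups overlap in all 6 genes, and the values of Cd163 spread from 6.41 to 21.0 CPM among the libraries labelled cKO.

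Csf1r was set against 6 other members across libraries, on log2 CPM and again on deviations from the genotype means, which made 12 relations. None passed a permutation test after Benjamini-Hochberg adjustment. The closest was Csf1r with Il34 (Pearson r = 0.70, permutation p = 0.0226, adjusted p = 0.272; Spearman rho = 0.53, permutation p = 0.124, adjusted p = 0.571; 10 libraries), and r was 0.46 without control 3 and cKO 5, the libraries farthest from the median of Csf1r, and 0.40 within genotypes. Without control 2, over 9 libraries, r was 0.79 for Il34, 0.77 for C1qa (0.42 with all 10) and -0.62 for Csf1 (-0.09 with all 10), and on deviations from the genotype means 0.51, 0.58 and -0.76; these values have no test.

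Of the transcription factors, Spi1 was at 11.03, 18.5, 19.1, 14.2 and 12.7 CPM in controls and 11.002, 15.3, 13.7, 14.7 and 11.97 CPM in the libraries labelled cKO, with its highest values in controls 2 and 3. Irf8, which acts with PU.1 in myeloid cells, was at 6.53, 5.57, 4.76, 5.24 and 4.65 CPM and at 6.54, 6.69, 5.57, 5.75 and 6.37 CPM, in the same order; control 1 alone reached the range of the other label, and control 2 lay just under its lowest library. The log2 fold changes had opposite signs, -0.18 (SE 0.156) for Spi1 and 0.21 (SE 0.128) for Irf8, with edgeR adjusted p of 0.730 and 0.630.

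Tissue macrophage surface or scavenger functions are marked by 12 members, of which 8 were above 0 and 4 below on the log2 scale, with a median of 0.16 and 0 calls. Mrc1 (ENSMUSG00000026712; chromosome 2, 14229392 to 14332057), the mannose receptor, was at 90.0, 96.9, 100.4, 103 and 91.6 CPM in controls and 102, 106, 124, 124 and 129 CPM in the libraries labelled cKO. Control 4 alone exceeded the lowest library of the other label, by less than 1 CPM. Its log2 fold change was 0.28 (SE 0.0821; edgeR adjusted p = 0.213), and 0.28 without control 2.

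Cd163 (ENSMUSG00000008845; chromosome 6, 124304656 to 124330527), the scavenger receptor for haemoglobin bound to haptoglobin, was at 9.12, 5.71, 5.28, 7.01 and 7.75 CPM in controls and 16.9, 10.6, 8.28, 6.41 and 21.0 CPM in the libraries labelled cKO. Libraries 1 and 5 of the latter were well above all controls, while libraries 3 and 4 lay among the controls. The log2 fold change was 0.85 (SE 0.280; edgeR adjusted p = 0.305), and leaving out cKO 5 reduced it to 0.59. The erythroid list, whose globin genes measure blood content, summed to 714 to 2968 CPM in controls and 444 to 1296 CPM in the libraries labelled cKO, with all 7 tested genes below 0 on the log2 scale and 0 called; its part in Cd163 was not tested.

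Lyve1, a hyaluronan receptor of perivascular macrophages and of lymphatic vessels, was at 29.1, 35.3, 38.9, 45.1 and 31.2 CPM in controls and 49.1, 30.3, 43.5, 44.7 and 37.5 CPM in the libraries labelled cKO, with broad overlap (log2 fold change 0.19, SE 0.140, edgeR adjusted p = 0.671). Of the lymphatic markers, Flt4 and Pdpn had log2 fold changes of 0.03 and 0.05, Ccl21a had 0 counts in every library, and Prox1 was at -0.53 (edgeR adjusted p = 0.269; called without control 2, at 0.0193, by limma-voom, at 0.0144, and with 1 surrogate variable, at 0.00145). Prox1 is also known from supporting cells of the cochlea, and its exons overlap those of Prox1os. The part of lymphatic vessels in the Lyve1 level was not tested.

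The 4 members known best from microglia differed in direction. Cx3cr1, the fractalkine receptor, ranged from 25.5 to 31.1 CPM in controls and from 19.2 to 44.4 CPM in the libraries labelled cKO, where library 1 was lowest and library 4 highest of all 10. P2ry12, a purine receptor, and Gpr34 had log2 fold changes of -0.04 and 0.06. Siglech rested on 15 to 54 counts per library and had 0.60 (SE 0.302). Among genes listed for brain, Olig1, Olig2, Aqp4 and Cbln1 were lower in the libraries labelled cKO, with 4 of 7 tested called by edgeR. Cbln1 was called in only 2 of the 10 fits that left out 1 library and not with the replicate block (edgeR adjusted p = 0.0977). The list summed to 294 to 341 CPM in controls and 227 to 344 CPM in the libraries labelled cKO. The cerebellar gene Gabra6 had 0 counts in every library. On the same list Slc1a2 went the other way, at 0.36 (edgeR adjusted p = 0.498), and Mbp and Gfap had -0.50 and -0.27, not called. Most of the list's sum was Mbp and Slc1a2, with means of 192 and 106 CPM in controls and 136 CPM each in the libraries labelled cKO. That sum therefore says little about the called genes. The counts do not show whether RNA of the listed genes came from brain or from the cochlea itself. The part of brain genes in the levels of the microglial genes was not tested.

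Of the remaining members of this role, F13a1, the coagulation factor subunit made by macrophages, ranged from 43.8 to 53.3 CPM in controls and from 44.1 to 77.1 CPM in the libraries labelled cKO, highest in library 5. Trem2, a lipid receptor, ranged from 3.13 to 7.80 CPM over all libraries, Ms4a7 from 4.04 to 8.86, Aif1 from 2.94 to 4.78 and the lysosomal glycoprotein Cd68 from 5.52 to 9.67 CPM. Their log2 fold changes lay between -0.14 for Cd68 and 0.26 for F13a1, and the highest library was control 2 for Ms4a7, Aif1 and Cd68.

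The 3 chains of complement C1q, the recognition unit of the classical pathway, are encoded side by side on chromosome 4 between 136880129 and 136898803. C1qb was at 39.2, 48.0, 34.6, 32.3 and 30.6 CPM in controls and 51.7, 48.9, 35.0, 35.7 and 50.7 CPM in the libraries labelled cKO. C1qa was at 37.1, 51.0, 31.0, 32.6 and 25.9 CPM and at 49.1, 39.1, 32.5, 31.9 and 45.8 CPM, in the same order. C1qc ranged from 35.7 to 49.6 and from 33.8 to 56.3 CPM. All 3 chains were high in control 2 and in libraries 1 and 5 labelled cKO. In library 2 labelled cKO C1qb and C1qc were high too, at 48.9 and 47.7 CPM. The groups overlapped broadly for C1qa and C1qc, and for C1qb only through controls 1 and 2.

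The log2 fold changes were 0.27 (SE 0.145) for C1qb, 0.16 (SE 0.170) for C1qa and 0.21 (SE 0.145) for C1qc, with edgeR adjusted p of 0.597, 0.782 and 0.659. Without control 2 they were 0.37, 0.31 and 0.29, with adjusted p of 0.283, 0.461 and 0.477. Single libraries moved the value of C1qa by over 1.5 times, to 0.31 without control 2 and to 0.065 without control 5, 0.069 without library 1 labelled cKO and 0.10 without library 5. The other complement genes showed 10 of 14 tested above 0, a median of 0.09 and 0 calls, among them C2 with a log2 fold change of 0.33 (edgeR adjusted p = 0.477).

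Among Fc receptors and their adaptors, which couple antibody binding to activation, Fcgr3 had a log2 fold change of 0.35 (SE 0.167; edgeR adjusted p = 0.532), with 9.28 to 12.8 CPM in controls and 9.42 to 17.5 CPM in the libraries labelled cKO. Fcgr1 had -0.16. The shared adaptors Fcer1g and Tyrobp had -0.09 (SE 0.116) and -0.06 (SE 0.118), with edgeR adjusted p of 0.823 and 0.898. Fcer1g was at 14.5, 21.3, 15.9, 14.7 and 15.0 CPM in controls and 16.7, 15.5, 14.3, 15.3 and 14.6 CPM in the libraries labelled cKO, so 9 libraries lay close together and control 2 above them. Tyrobp was at 12.3, 14.4, 12.5, 12.1 and 12.7 CPM and at 13.2, 14.8, 9.57, 12.4 and 11.7 CPM, and its lowest and highest libraries were both labelled cKO.

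The leukocyte membrane and lysosome genes had 5 of 6 members above 0 and a median of 0.07. Laptm5, a lysosomal membrane protein of blood cells, was at 28.6, 31.9, 33.6, 34.8 and 29.9 CPM in controls and 33.3, 38.6, 36.1, 36.9 and 36.9 CPM in the libraries labelled cKO. The groups overlapped only through library 1 labelled cKO, and the log2 fold change was 0.19 (SE 0.0812; edgeR adjusted p = 0.472). The protease Ctss was at 23.1, 29.1, 21.1, 23.2 and 20.5 CPM and at 24.3, 27.2, 21.3, 22.4 and 29.9 CPM, highest in control 2 and in library 5 labelled cKO (log2 fold change 0.10, SE 0.120, edgeR adjusted p = 0.810). Ptprc, the pan-leukocyte phosphatase CD45, had -0.08, the integrin chains Itgb2 and Itgam had 0.03 and 0.17, and Ly86 had 0.05.

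The class II antigen presentation genes present peptides to helper T cells. H2-Ab1 was at 0.840, 3.15, 1.33, 1.75 and 3.15 CPM in controls and 2.49, 2.60, 2.16, 1.58 and 2.54 CPM in the libraries labelled cKO, where controls 2 and 5 were the highest of all 10. Its log2 fold change was 0.16 (SE 0.314; edgeR adjusted p = 0.893), with H2-Aa at 0.15 (SE 0.340). Cd74, the invariant chain, was at 3.68, 6.52, 3.16, 4.57 and 4.48 CPM and at 4.47, 5.20, 3.26, 4.21 and 4.81 CPM, a log2 fold change of -0.03 (SE 0.193; adjusted p = 0.967). The B cell list, whose cells also use class II, summed to 6.84 to 15.4 CPM in controls and 7.26 to 17.7 CPM in the libraries labelled cKO, with 0 of 6 genes called; its part in these levels was not tested.

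Inflammatory signals were scarce. Tnf (ENSMUSG00000024401; chromosome 17, 35199381 to 35202007), a central inflammatory cytokine, had 14, 37, 38, 26 and 10 counts in controls and 4, 14, 7, 24 and 4 counts in the libraries labelled cKO. Controls 2, 3 and 4 were highest, at 1.04, 1.10 and 0.721 CPM, and controls 1 and 5, at 0.327 and 0.256 CPM, lay within the range of the other label, 0.109 to 0.613 CPM. The log2 fold change was -1.25 (SE 0.524; edgeR adjusted p = 0.475), and -1.06 without control 2. Il1b had at most 8 counts in any library and 0 in library 1 labelled cKO, where a count of 0 allows up to 3 counts, or 0.0899 CPM, from counting error alone.

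The chemokine Ccl3 had 2 to 22 counts per library and a log2 fold change of 0.04 (SE 0.547), and Ccr2, the receptor of inflammatory monocytes, had 15 to 40 counts and -0.39 (SE 0.290). The pattern receptors rested on more counts. Tlr2 was at 8.19, 8.41, 11.1, 11.8 and 9.51 CPM in controls and 7.76, 9.95, 10.4, 10.1 and 11.1 CPM in the libraries labelled cKO. Tlr4 ranged from 5.90 to 8.98 and from 6.75 to 9.51 CPM. The groups overlapped for both, with log2 fold changes of 0.01 (SE 0.135) and 0.09 (SE 0.139). Cd14, the lipopolysaccharide co-receptor, was at 2.03, 4.22, 2.84, 2.74 and 2.33 CPM and at 1.83, 2.83, 2.76, 2.68 and 2.79 CPM, highest in control 2 (-0.13, SE 0.206). The edgeR adjusted p of these 5 genes was at least 0.680.

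S100a8 and S100a9, the paired calcium-binding proteins of neutrophils and monocytes, had alike profiles across libraries. S100a9 was at 1.82, 3.80, 1.83, 1.77 and 3.45 CPM in controls and 3.42, 2.57, 1.96, 1.28 and 2.65 CPM in the libraries labelled cKO. S100a8 was at 1.40, 3.91, 1.68, 1.94 and 3.12 CPM and at 3.15, 1.72, 2.06, 1.46 and 1.58 CPM. Both were high in controls 2 and 5 and in library 1 labelled cKO. The erythroid list was highest in controls 2 and 5 (2968 and 2217 CPM) and at 444 to 1296 CPM in the other 8 libraries, 871 CPM in library 1 labelled cKO; its part was not tested. Their log2 fold changes were -0.27 (SE 0.297) and -0.10 (SE 0.289), with edgeR adjusted p of 0.783 and 0.929. Lyz2, the lysozyme of myeloid cells, was at 28.6, 36.0, 20.2, 22.9 and 28.3 CPM and at 25.7, 31.6, 18.7, 18.8 and 35.8 CPM, again highest in control 2 and in library 5 labelled cKO (-0.06, SE 0.193, adjusted p = 0.938).

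**Figure D3:**
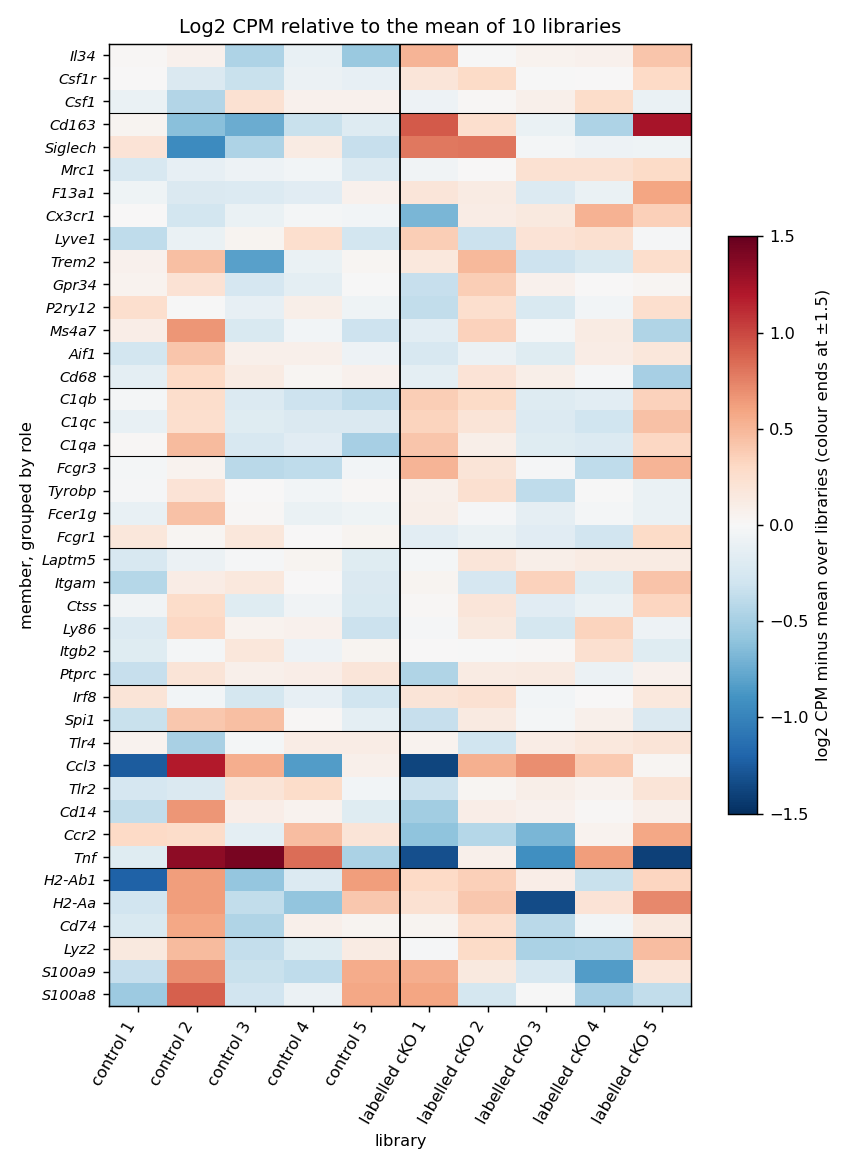
Log2 CPM of the 42 members (rows, grouped by role) in each library (columns), as the difference from the mean of the 10 libraries; red is higher, blue lower, and the colour ends at ±1.5. Control 2 holds the highest CPM of 13 members and library 5 labelled cKO that of 12.

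Resident and inflammatory genes were then set side by side. The resident genes were 16: Csf1r, Aif1, Cd68, the C1q chains and the surface and scavenger genes above. The inflammatory genes were 10, of which the 8 that passed were Ccl3, Ccr2, Cd14, Tlr2, Tlr4, Tnf, S100a8 and S100a9. Of the resident genes 12 were above 0 and 4 below, the median log2 fold change being 0.20, and of the inflammatory genes 3 were above and 5 below, with a median of -0.11, beside -0.01 over all genes. Neither group had a call by edgeR. At an unadjusted p under 0.05 there were 3 resident genes (Csf1r, Mrc1 and Cd163), or 18.75%, and 1 inflammatory gene (Tnf), or 12.5%. The share over all genes was 9.65%. Without control 2 the counts were 5 resident genes (31.25%) and 0 inflammatory genes, against 10.2% of all genes.

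Per library, the mean log2 CPM of the resident genes was 3.88, 3.94, 3.68, 3.84 and 3.75 in controls and 4.02, 4.13, 3.85, 3.89 and 4.13 in the libraries labelled cKO. That of the inflammatory genes was 0.52, 1.39, 1.03, 0.90 and 0.95 in controls and 0.48, 0.83, 0.73, 0.84 and 0.78 in the libraries labelled cKO. Their difference per library was 3.36, 2.55, 2.65, 2.94 and 2.80 in controls and 3.54, 3.30, 3.12, 3.05 and 3.35 in the libraries labelled cKO, with means of 2.86 ± 0.316 and 3.27 ± 0.196 (SD, 5 libraries each). It was smallest in control 2, and control 1 lay above 4 of the 5 libraries of the other label, so the groups overlapped. Without control 2 the control mean was 2.94 ± 0.305 (SD, n = 4). Tnf passed the filter through the controls, where it was higher. Without Tnf, an alternative chosen after the data were seen, the inflammatory mean was 1.18 ± 0.289 in controls and 1.09 ± 0.132 in the libraries labelled cKO, so that its shift between the labels went from -0.22 with Tnf to -0.09, and to 0.01 without control 2 as well. The difference from the resident mean was then 2.64 ± 0.293 in controls and 2.91 ± 0.156 in the libraries labelled cKO, a shift of 0.27 in place of 0.41. With Ccl3 left out too, the inflammatory shift was -0.12, and -0.06 without control 2. The difference from the resident mean was then 2.14 ± 0.200 in controls and 2.44 ± 0.110 in the libraries labelled cKO, a shift of 0.31. Because the genes were chosen with results known, this difference has no test.

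**Figure D4:**
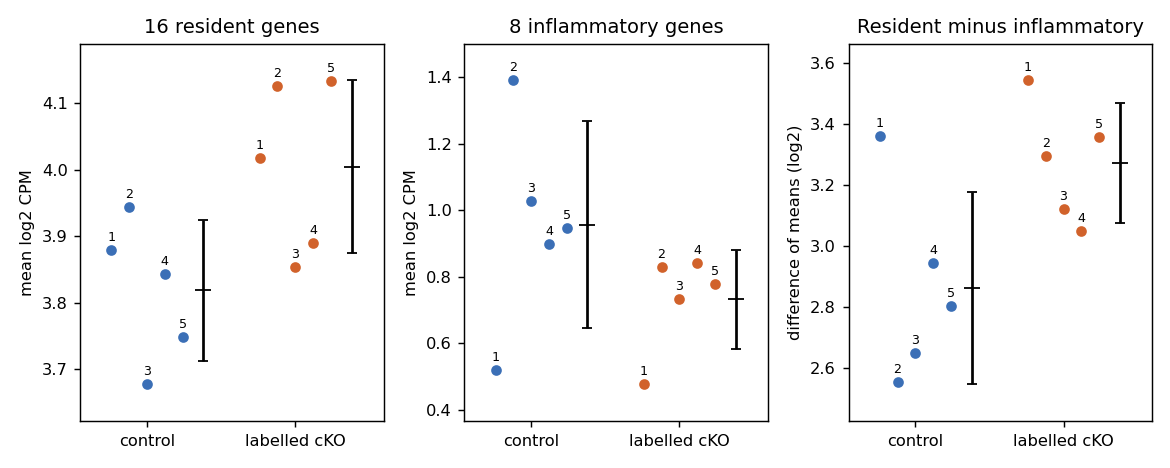
Mean log2 CPM (y axes, not from 0) of 16 resident genes, of 8 inflammatory genes and the difference between these means in each library. Points are numbered by replicate, blue for control and orange for the libraries labelled cKO, and black bars give the mean ± SD (n = 5 each); control 2 is highest for the inflammatory genes and control 1 overlaps the other label in the difference.

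Other macrophage genes gave 18 of 27 above 0, a median of 0.03 and 1 call, which was lower. At an unadjusted p under 0.05 in edgeR there were 4 higher and 4 lower, or 29.6% against 9.65% of all genes. The 4 higher were Axl, Csf2rb at 0.47, Stab1 at 0.27 and Maf at 0.25, with edgeR adjusted p of 0.175, 0.246, 0.370 and 0.453. Among the lower were Timd4 (1 to 16 counts per library) at -1.10 and Folr2 (9 to 31 counts) at -0.57. Their edgeR adjusted p was 0.487 and 0.513. Axl, a receptor for dying cells, was not called by edgeR (log2 fold change 0.24, SE 0.0656, edgeR adjusted p = 0.175), although the CPM of Axl did not overlap between the labels; Axl was called by DESeq2 (adjusted p = 0.0156), by limma-voom (0.0357) and with 1 surrogate variable (0.0391). Adgre1 (F4/80) and Mpeg1, both general macrophage markers, had log2 fold changes of -0.03 and 0.19.

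Pathway genes downstream of the pattern receptors were compared in the same fit. Of 19 genes of Toll-like receptors and NF-kB signalling, 17 were above 0, with a median of 0.14 and 0 calls; Lbp, which carries lipopolysaccharide, had 0.35 (SE 0.118, edgeR adjusted p = 0.332) and Tlr7 0.46 (adjusted p = 0.579). Tlr7 was at 11.1 CPM in library 1 labelled cKO and at 3.43 to 7.30 CPM in the other 9, and without that library its log2 fold change was 0.19. Of 19 cytokines and chemokines, 13 were tested and 10 were below 0, with a median of -0.26 and 0 calls, among them Ccl9 at -0.65 (adjusted p = 0.611); Cxcl12, at 494 and 541 CPM, took most of the list's sum. Il6, Il10 and Il1a had at most 6 counts in any library. The 12 interferon response genes had a median of 0.03 and 0 calls, with Oasl2 at 0.29 (adjusted p = 0.634). At an unadjusted p under 0.05 there was 1 gene (Lbp) in these 3 lists. The blood endothelium genes, as a measure of vessels, had a median of -0.01 and 0 of 7 called (Cdh5 0.21, Pecam1 0.11), and the cochlear genes a median of 0.11 and 0 of 15 called (Gjb2 0.21, Otos -0.79; DESeq2 called Otos, at an adjusted p of 0.0400).

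Control 2 differed from the other controls member by member. It lay above their mean for 30 of 42 members, by a median of 0.30 on the log2 scale, against 0.02 over all genes. Across the members the deviation fell with exon length (r = -0.55 over 42 genes, a description). The inflammatory genes were higher there by a median of 0.79 and the resident genes by 0.15. Short genes such as Ccl3, S100a8 and S100a9 (766, 694 and 522 bases of exon) were 1.56, 0.99 and 0.82 above the other controls, while Csf1, Tlr4 and Csf1r (5281, 5556 and 5774 bases) were at -0.50, -0.55 and -0.08. Not all members followed length. The short Tyrobp (667 bases) was only 0.22 above, and the longer H2-Aa, Ms4a7 and Trem2 (3798, 4453 and 4946 bases) were 0.84, 0.79 and 0.65 above. The part of length in these levels was not tested.

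**Figure D5:**
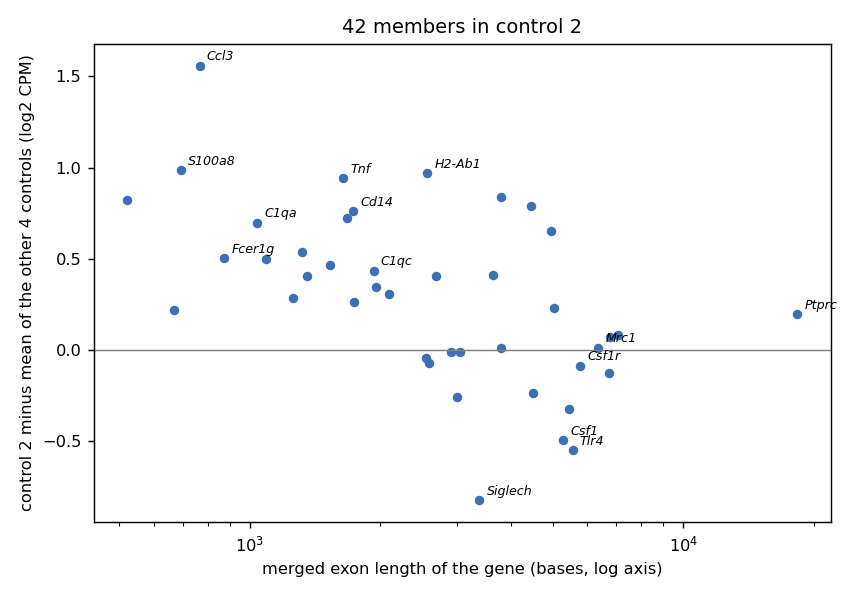
Deviation of control 2 from the mean of the other 4 controls (log2 CPM, y axis) against merged exon length (bases, log axis) for the 42 members, some of them named. Members with short exons lie mostly above 0. Over all 42 members the values run from Ccl3 at 1.56 to Siglech (3383 bases) at -0.82.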

How the data were processed

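The authors deposited read counts (whole numbers) for 54532 Ensembl gene IDs and, separately, FPKM values of those IDs. Per the submitters' processing notes, STAR 2.5, HTSeq 0.61, DESeq2 and the build mm10 were used; gene models and strandedness are not given in the sources used here. Symbols, positions (GRCm38, counted from 1) and exon lengths came from GENCODE M21, which held 54495 of 54532 gene IDs. The deposited FPKM implied lengths within 0.1% of it for 95.3% of the 13923 genes whose lowest library had 50 counts or more.

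Counts were filtered with edgeR 4.0.16 filterByExpr (minimum count 10), scaled by TMM factors and tested with the quasi-likelihood F-test, robust, with genotype as the only term, over 17937 genes and with Benjamini-Hochberg adjustment. SE values derive from the F statistic, and the test was tried on simulated data first. Log2 CPM used a prior count of 2. Limma 3.58.1, DESeq2 1.42.0 and sva 3.50.0 gave alternatives. The members, lists and tests were chosen with earlier results of these data known. Members were named with values per library where an unadjusted p was under 0.05, the labels did not overlap, or FPKM was among the 2 highest of their role; other listed genes were named where called or among the 2 smallest p of their list, and some others for context after their values were seen. A few listed genes that meet this rule, a called one among them, are not reported here. Permutation tests used 100000 resamples, two-sided. Promoter sequences are RefSeq's (GRCm38.p6). Intervals for counts of 0 cover counting error only.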

Additional observations from a re-analysis of the deposited data

Results flagged for a closer look

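In each group of 5 libraries, the gap of the highest or lowest library to its neighbour was set against the range of the group with Dixon's test (critical ratio 0.71), for 51 measures in both groups. Chance flags about 5% of groups, or 5.1 of 102; there were 8 cases, 5 of them on control 2. Cases on 1 library share that library's depth and composition.

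Control 2 stood high for C1qc (49.6 CPM, other controls 35.7 to 38.6), Fcer1g (21.3 CPM, others 14.5 to 15.9), Tyrobp (14.4 CPM, that is 14.45, others 12.1 to 12.7) and the mean log2 CPM of the 42 members (3.16, others 2.80 to 2.90). It stood low for Tlr4 (5.90 CPM, others 8.15 to 8.98). Ptprc was low in control 1 (4.80 CPM, others 6.41 to 7.00). Among the libraries labelled cKO, Fcgr1 was high in library 5 (5.68 CPM, others 3.80 to 4.32) and Cd14 low in library 1 (1.83 CPM, others 2.68 to 2.83).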

How the results depend on the processing

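The 42 members had 0 calls lower in each of the 21 alternatives and 0 higher in 20 of them; limma-voom with quality weights called 1 higher, Mrc1. For "all genes called, lower" and "all genes called, higher", the counts of 98 and 13 moved to 199 and 55 with 1 surrogate variable, 253 and 54 with DESeq2 and 356 and 68 with limma-voom; an adjusted p threshold of 0.1 gave 24 higher. With 1 library left out they ranged from 44 to 178 lower and 8 to 19 higher, most without control 2 and fewest without control 3 (8 higher also without cKO 5); the lower calls were 60 or fewer without any 1 of controls 1, 3, 4 and 5 or cKO 2, 4 and 5. The cause was not tested. The median log2 fold change of the resident genes stayed positive (0.12 without cKO 5 to 0.24 without control 2). That of the inflammatory genes stayed negative (-0.23 without control 1 to -0.018 with 1 surrogate variable, and -0.031 without control 2). The difference of these medians was 0.31 and ranged from 0.22 to 0.42 in the other fits. Without Tnf, added after seeing the data, it was 0.30 and the inflammatory median -0.10. Without Tnf and Ccl3 both kept their values of 0.31 and -0.11. This was fixed in advance and is no check, because Tnf lay below the inflammatory median and Ccl3 above it.

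Signs changed for some of the named genes that were followed through every fit, among them Cd2, which is not a member. Tlr2 (0.01) was at -0.021 with 1 surrogate variable and -0.089 with limma-voom, Csf1 at -0.0051 with limma-voom, and Cd74 (-0.03) at 0.061 and 0.072 in these fits. With 1 library left out the ranges were -0.052 to 0.081 for Tlr2, -0.032 to 0.13 for Csf1, -0.13 to 0.13 for Cd74, -0.13 to 0.015 for Fcer1g, -0.13 to 0.023 for Tyrobp, -0.23 to 0.046 for Cd14, -0.047 to 0.37 for H2-Ab1, -0.26 to 0.082 for S100a9, -0.20 to 0.049 for Lyz2 and -0.11 to 0.26 for Cd2. Cbln1 missed the threshold in 8 of these 10 fits (highest edgeR adjusted p 0.114). Tlr4 and Ms4a7, not followed through every fit, also changed sign without control 2, from 0.09 to -0.02 and from -0.09 to 0.09.

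Whether the replicate numbers pair the samples is not settled by the data. Same-numbered libraries correlated at 0.021 to 0.18 across genes. Of the controls, 3 of 5 matched their own number best (2, 3 and 5), as did libraries 2, 3 and 5 labelled cKO. With the replicate block there were 83 lower and 18 higher calls over all genes and 0 among the members, whose smallest adjusted p was 0.128 (Cd163). At an unadjusted p under 0.05 edgeR then had 9 members, 8 of them higher, and 12.2% of all genes. Without the block these were 6 members and 9.65% of all genes. Depth limits Tnf, Ccl3, Ccl4 and Il1b, which rest on few counts.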

Other observations

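Osteoclasts, the bone-resorbing cells of the same lineage, could be present where some bone remained; these data do not show whether it did. Of 5 tested osteoclast genes 4 were below 0 on the log2 scale, with a median of -1.06, 0 calls by edgeR and 1 gene at an unadjusted p under 0.05. That gene was the phosphatase Acp5, at 2.96, 8.01, 10.1, 5.10 and 11.9 CPM in controls and 2.85, 2.37, 5.74, 6.38 and 0.820 CPM in the libraries labelled cKO (log2 fold change -1.06, SE 0.473, edgeR adjusted p = 0.501). The matrix protease Mmp9, shared with neutrophils, was at 46.4, 58.8, 119, 48.4 and 113 CPM in controls and 33.8, 46.1, 74.4, 62.4 and 12.8 CPM in the libraries labelled cKO (log2 fold change -0.75, SE 0.453, edgeR adjusted p = 0.632). The fusion gene Dcstamp was at 0.443, 1.18, 1.10, 0.166 and 1.13 CPM and at 0.120, 0.0858, 0.721, 0.664 and 0 CPM (-1.29, adjusted p = 0.595). Controls 3 and 5 were high for all 3 genes and library 5 labelled cKO was lowest for each, the library in which Cd163, F13a1 and C1qc were highest. Ctsk, abundant at 91.5 FPKM and also made by other cells, had a log2 fold change of 0.04.

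Mast cell genes had 4 of 5 tested above 0, a median of 0.27 and 0 calls. Hdc, the histamine-forming enzyme, was at 2.36, 1.43, 1.22, 1.55 and 2.38 CPM in controls and 4.38, 3.86, 2.59, 2.68 and 4.97 CPM in the libraries labelled cKO, with no overlap between the labels (log2 fold change 1.04, SE 0.242, edgeR adjusted p = 0.0873, and 0.0679 to 0.267 with 1 library left out). DESeq2 (adjusted p = 0.00373), limma-voom (0.0384), the replicate block (0.0158) and edgeR with no filter on low counts (0.0195) called it. The mast cell protease Cpa3 had 0.41 (SE 0.173, edgeR adjusted p = 0.477).

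Markers of other blood cells had 0 calls by edgeR. In the B cell list Pax5 had a log2 fold change of 0.86 (edgeR adjusted p = 0.569), in the T and NK cell list Cd2 had 0.09 and Cd4 0.16 (0.926 and 0.812), and in the neutrophil list Camp had -0.28 (0.734). The 9 tested genes of the neutrophil list had 4 above 0 and 5 below, with a median of -0.01. In the erythroid list Hba-a2 had -1.14 and Hbb-bs -0.84 (0.477 and 0.579). At an unadjusted p under 0.05 there was 1 gene, Hba-a2, in these 4 lists. Acp5, Pax5 and Mpo have exons that overlap another gene. So do Prtn3, Olig1, Slc1a2, C2, Folr2, Csf2rb, Stab1, Maf, Tecta and Il1a among the other listed genes named here.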
